A study of Mus musculus with 10 samples.

Results

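Foxp1, Foxo1 and Foxo3 encode forkhead transcription factors, which bind DNA through a winged-helix domain. The open chromatin around these 3 genes was followed through 4 stages of mouse blood cell development and in progenitors that lack IRF8. The members were 139 regions of open chromatin, of 114366 found in the whole series. They were the merged peaks whose centre lay inside the gene or within 50 kb of it, with 92 regions at Foxp1, 23 at Foxo1 and 24 at Foxo3. The members were selected on peak positions alone, but the genes themselves were chosen by results of these same data, the peaks detected around them in the 10 libraries, so every value below is a description and no p-value is given. With 2 libraries against 2, an exact two-sided permutation test could in any case not go below p = 0.333.

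Chromatin was assayed by ATAC-seq, in which a transposase cuts DNA that is accessible and adds sequencing adapters to the ends. Primary cells came from the bone marrow of C57BL/6 mice and were enriched on magnetic columns, then sorted by flow cytometry. There were 5 groups with 2 libraries each. LT-HSC are wild-type long-term hematopoietic stem cells, sorted as Lin- CD117+ Sca-1+ CD135- CD48- CD150+. LMPP are wild-type lymphoid-primed multipotent progenitors, sorted as Lin- CD117+ Sca-1+ CD135+, although their cell type label reads short-term stem cells. IRF8KO MDP and WT MDP are monocyte-dendritic cell progenitors of IRF8-deficient and of wild-type mice, both sorted as Lin- Sca-1- CD117+ IL-7R- CD115+. CDP are wild-type common dendritic cell progenitors, sorted in the same way but for intermediate CD117 and with CD135+ added. The kind of IRF8 allele, the age of the mice and the number of animals per library are not given in the sources used here, so the spread between replicates may be partly technical.

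FOXO1 and FOXO3 are the nuclear end of growth factor signalling. Phosphatidylinositol 3-kinase activates the kinase AKT, AKT phosphorylates FOXO proteins and these leave the nucleus, so that FOXO target genes are active when the signal is low. In blood, FOXO proteins keep stem cells quiescent and resistant to oxidative stress, and FOXO1 drives genes of early lymphocytes such as Il7r. FOXP1 is mainly a repressor that binds as a dimer with itself or with related FOXP proteins. It is needed for early B cells, holds naive T cells quiescent and restrains the maturation of monocytes. Which enhancers these 3 genes use from stem cell to dendritic progenitor can be read in part from where the chromatin is open.

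Total tags ranged from 4790046 to 10166833 per library, and the deepest 2 libraries were the CDP libraries. LT-HSC replicate 1 stood apart, with 31325 peaks and 19.3% of tags within peaks, where the median library had 46.4% of tags within peaks. The other 9 libraries had 50728 to 69598 peaks, with 50728 and 54277 in IRF8KO MDP and 62130 and 64515 in WT MDP. The labelled cell types were set against lists of marker genes by peaks within 1 kb of a gene end. Peaks lay at 3 or 4 of 5 stem cell markers in all libraries and at 5 of 5 monocyte-dendritic markers in the WT MDP and CDP libraries, but at 2 and 4 in LT-HSC, so open gene ends separated the groups little. Gata1, Pax5, Ncr1 and Fcer1a, markers of erythroid, B, NK and mast cells, were open at their ends in no library. Other members of those lists did have peaks, at 3 of 4 erythroid markers in both LT-HSC libraries, 3 and 2 of 4 T and NK cell markers in CDP, 2 of 3 mast cell markers in LMPP and 2 or 3 of 4 B cell markers in every library. From lists with no such gene, 4 of 4 stromal and endothelial markers had peaks in both CDP libraries. Peaks also lay at 3 of 3 megakaryocyte markers in LT-HSC and LMPP and at 4 of 4 neutrophil markers in all MDP libraries. Of 31 regions in the same kind of window around Irf8, the IRF8KO MDP libraries detected 14 and 17 and the WT MDP libraries 22 and 18, and 5 and 5 against 7 and 4 of the 10 regions over the gene itself. These peaks therefore do not check the genotype.

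The promoters of the 3 genes are shown because most were open in nearly all libraries and because the 3 Foxp1 promoters differed from each other. Foxp1 (gene 108655) spans 98925342 to 99522746 on the minus strand of chromosome 6, Foxo1 (gene 56458) spans 52268337 to 52350109 on the plus strand of chromosome 3, and Foxo3 (gene 56484) spans 42181845 to 42276695 on the minus strand of chromosome 10. Foxp1 has 3 annotated starts in the table, the second 254.5 kb and the third 492.7 kb downstream of the first, and Foxo1 and Foxo3 have 1 each. Each sequence below is from RefSeq, build GRCm38.p6 (the assembly of mm10), runs 5′ to 3′ along transcription, and holds 250 bases before the start site and 50 from it on. Capitals mark every match, on either strand, to 1 of 8 motifs that are listed after the sequences.
Foxp1 promoter 1 (chr6:99520944-99521243, minus strand): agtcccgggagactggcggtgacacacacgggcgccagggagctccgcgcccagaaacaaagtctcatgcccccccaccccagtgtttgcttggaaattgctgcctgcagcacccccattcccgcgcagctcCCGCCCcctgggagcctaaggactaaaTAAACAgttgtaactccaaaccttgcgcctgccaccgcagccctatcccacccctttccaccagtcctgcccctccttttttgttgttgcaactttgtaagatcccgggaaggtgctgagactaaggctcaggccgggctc
Foxp1 promoter 2 (chr6:99266466-99266765, minus strand): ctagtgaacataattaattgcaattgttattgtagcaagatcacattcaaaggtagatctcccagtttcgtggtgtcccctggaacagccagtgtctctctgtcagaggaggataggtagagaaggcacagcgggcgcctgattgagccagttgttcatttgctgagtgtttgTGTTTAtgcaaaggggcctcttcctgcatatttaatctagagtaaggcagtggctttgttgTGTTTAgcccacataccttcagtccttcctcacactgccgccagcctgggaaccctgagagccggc
Foxp1 promoter 3 (chr6:99028249-99028548, minus strand): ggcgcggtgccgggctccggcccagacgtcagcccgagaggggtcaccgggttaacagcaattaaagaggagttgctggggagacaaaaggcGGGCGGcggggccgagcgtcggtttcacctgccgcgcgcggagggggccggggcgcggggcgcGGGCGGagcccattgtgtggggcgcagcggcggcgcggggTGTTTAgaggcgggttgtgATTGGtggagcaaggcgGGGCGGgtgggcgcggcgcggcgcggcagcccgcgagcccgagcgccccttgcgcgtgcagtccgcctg
Foxo1 promoter 1 (chr3:52268087-52268386, plus strand): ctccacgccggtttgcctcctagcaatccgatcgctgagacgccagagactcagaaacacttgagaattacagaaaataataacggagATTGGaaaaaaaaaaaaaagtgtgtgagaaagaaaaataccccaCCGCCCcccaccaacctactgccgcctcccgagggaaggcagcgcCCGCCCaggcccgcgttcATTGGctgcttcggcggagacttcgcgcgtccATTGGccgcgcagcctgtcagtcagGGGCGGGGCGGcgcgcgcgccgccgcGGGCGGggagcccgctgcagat
Foxo3 promoter 1 (chr10:42276646-42276945, minus strand): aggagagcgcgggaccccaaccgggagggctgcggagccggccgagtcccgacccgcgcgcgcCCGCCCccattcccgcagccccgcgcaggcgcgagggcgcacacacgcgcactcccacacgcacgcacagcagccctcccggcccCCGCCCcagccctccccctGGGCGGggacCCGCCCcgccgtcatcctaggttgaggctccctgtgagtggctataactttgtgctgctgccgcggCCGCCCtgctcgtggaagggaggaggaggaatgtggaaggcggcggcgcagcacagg

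The motifs searched on both strands were the GC box GGGCGG, the CCAAT box CCAAT, the forkhead motif GTAAACA and its shorter core TGTTTA (whose reverse complement lies within GTAAACA), the ETS-IRF composite motif (GGAA, 2 bases of any kind, GAAA), the IRF motif (GAAA, 2 bases of any kind, GAAA), the ETS motif CCGGAAG and the TATA motif TATAAA. GC boxes were found 5 times each in the Foxo1 and Foxo3 promoters, of which 2 in Foxo1 overlap by a base, 3 times in Foxp1 promoter 3 and 1 time in Foxp1 promoter 1. A GC box is held by 35.7% of the 32851 promoters of the table. The short forkhead core was found in all 3 Foxp1 promoters, 2 times in promoter 2 and 1 time each in promoters 1 and 3, and in neither FOXO promoter, against 13.4% of all promoters. CCAAT boxes were found 3 times in Foxo1 and 1 time in Foxp1 promoter 3, against 37.4% of all promoters. The other motifs had no match in these 5 windows, which says only that those letters are not there. CpG dinucleotides numbered 44 in Foxp1 promoter 3, 35 in the Foxo3 promoter, 31 in the Foxo1 promoter, 13 in Foxp1 promoter 1 and 5 in Foxp1 promoter 2, where the median promoter has 7.

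Where a promoter stood in the peak list was used beside its detection. A list position is the share of the list's rows that stand above the peak, so 0% is the first row. The lists carry no strength of a peak, and that row order follows strength is an assumption. Within the lists, rows ran in genome order inside 404 to 923 blocks, the largest holding 2.41% to 4.61% of a list, so the order has steps and small differences in position mean nothing. Over the regions of these 3 genes found in both replicates, positions of replicates had a Spearman correlation of 0.757 in LT-HSC (21 regions), 0.864 in LMPP (50), 0.887 in IRF8KO MDP (43), 0.890 in WT MDP (60) and 0.926 in CDP (80). These points share their loci and libraries, so the values describe agreement only.

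The Foxo3 promoter had the best mean position of all 139 regions. Its 300 bases were covered by a peak in all 10 libraries, at positions from 0.23% to 2.45% and with peaks 3092 to 5271 bp wide. The Foxo1 promoter was also covered in all 10, at 17.1% in LT-HSC replicate 1 and at 4.68% to 9.59% in the other 9 libraries. Across all promoters in the table, 38.0% to 44.9% had a peak in a given library.

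The 3 Foxp1 promoters behaved differently. Promoter 1 was covered whole in 9 libraries, at positions of 2.35% to 6.14%. In LT-HSC replicate 1 the merged region around it had a peak at 15.3%, which did not reach the 300 bases. Promoter 3, the CpG-rich one, was covered whole in all 10 libraries, at 56.0% in LT-HSC replicate 1 and at 9.87% to 21.7% in the others. Promoter 2, the CpG-poor one, had a peak in 9 libraries and stood much lower in the lists. Its positions were 53.3% and 40.7% in LT-HSC, 39.0% and 36.9% in LMPP, 73.2% and 92.6% in WT MDP, and 52.5% and 55.9% in CDP. In IRF8KO MDP replicate 1 it had no peak, and in replicate 2 it stood at 65.8%. Peaks covered 167 and 281 of its 300 bases in LT-HSC, 265 and 298 in LMPP, 38 and 19 in WT MDP, and 198 and 300 in CDP. In IRF8KO MDP they covered 0 and 213, on either side of the WT MDP values. WT MDP was thus the WT stage with the lowest standing and the least coverage of promoter 2, and its values did not overlap those of the other WT stages in either measure.

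The 3 loci were densely filled with open regions. Foxp1 had 13.2 regions per 100 kb of window, Foxo1 12.7 and Foxo3 12.3, where the median window of 21627 protein-coding genes had 7.38. Most members, 114, lay inside the gene spans. The 16 upstream and 9 downstream flanking regions included 2 upstream of Foxo3, at -36.8 and -23.6 kb, that were nearer to Afg1l, each seen in 1 library. Exons and introns were not told apart, since the gene table used gives spans only. Below, a region is named by its gene and the distance of its centre from the first annotated start along transcription.

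The 50 kb limit sets which regions count. The outermost regions inside the Foxp1 window lay 46.9 and 21.3 kb from the gene and were seen in 3 libraries each, and the next ones out lay 76 and 78 kb away and were seen in 3 and 10 libraries. At Foxo1 the outermost regions inside lay 34.6 and 46.3 kb away and were seen in 2 libraries and 1, and those just outside lay 69.5 and 50.9 kb away and were seen in 9 and 8. At Foxo3 the outermost inside both lay 36.8 kb away, seen in 7 libraries and 1, and those just outside lay 50.3 and 160.3 kb away, seen in 4 and 5.

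**Figure D1:**
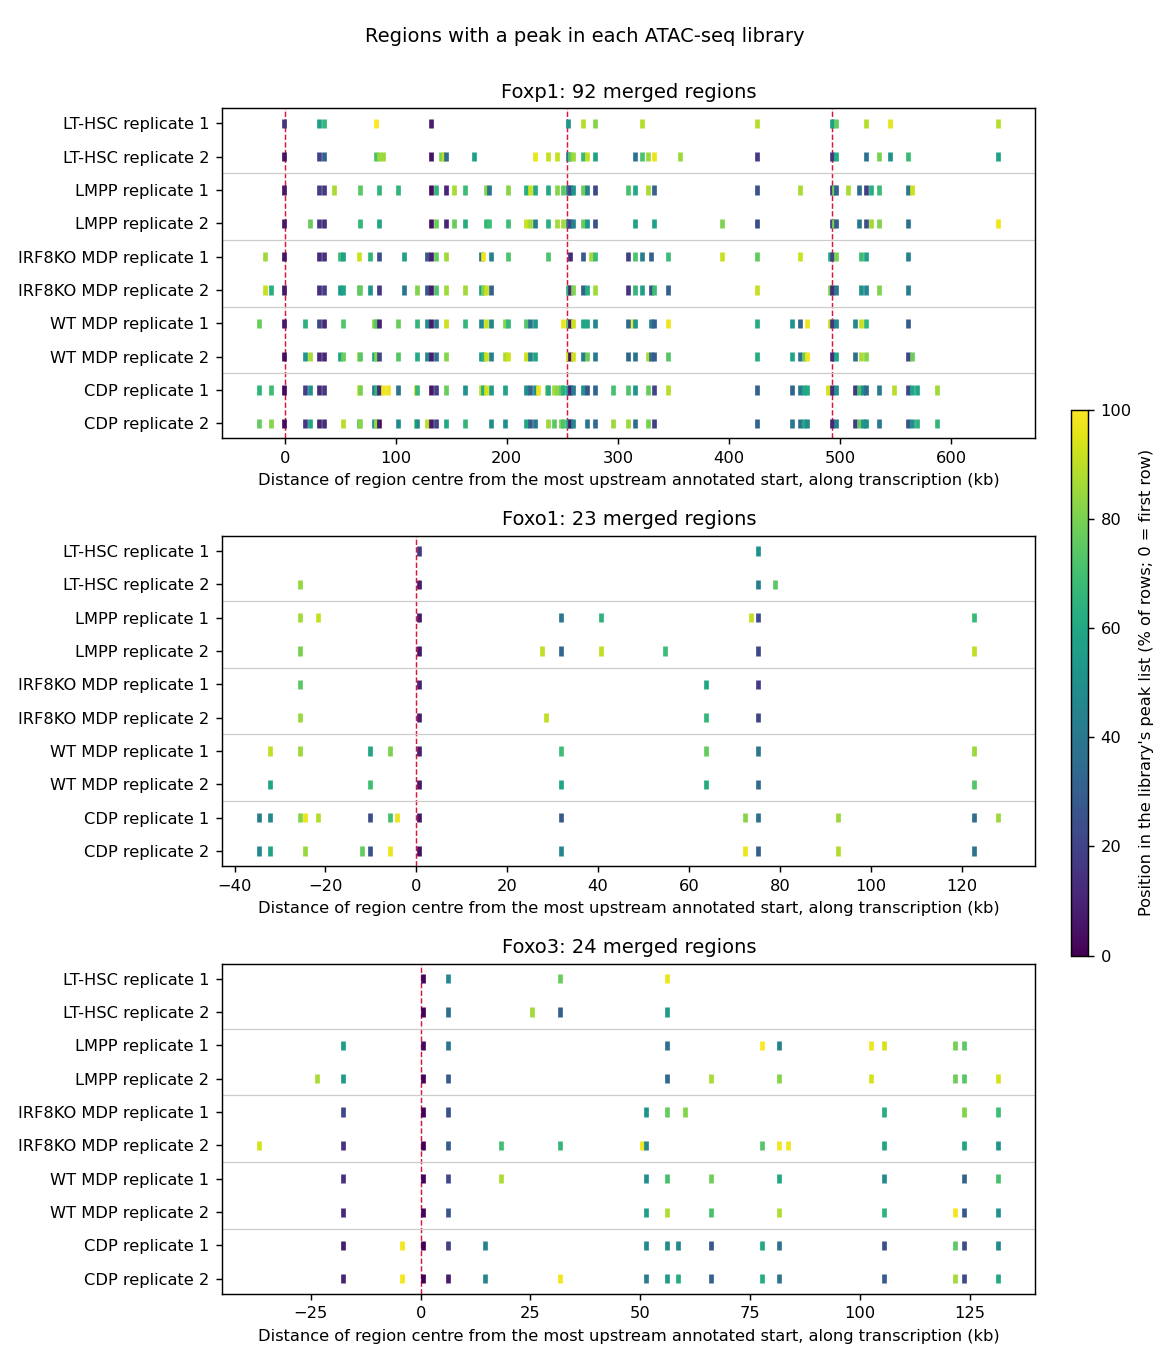
Peaks at the 3 loci in each library. Rows are libraries, the x axis is the distance in kb of each merged region's centre from the most upstream annotated start along transcription, dashed red lines mark annotated starts, and colour gives the position in the library's peak list in percent of rows (dark is near the first row). The starts other than the second of Foxp1 were dark in most libraries, Foxp1 was filled along its whole length, and the CDP rows were the fullest, with 66 and 56 of 92 Foxp1 regions.

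Few of these regions were shared by all cells. Only 13 of 139 (9.35%) were detected in all 10 libraries, against 17.0% of all merged regions. They were 9 at Foxp1, 2 at Foxo1 and 2 at Foxo3. Regions seen in 1 library alone made up 19.4%, against 19.1% of all merged regions. Regions found in both CDP libraries and nowhere else made up 14 members (10.1%, against 4.62%).

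The constant regions included 1 strong element far from any annotated start. Foxp1 +132.0 kb (chr6:99388083-99389998) stood at 8.44% and 4.87% in LT-HSC, 3.18% and 4.13% in LMPP, 7.44% and 7.04% in IRF8KO MDP, 6.51% and 7.72% in WT MDP, and 6.20% and 6.70% in CDP. Its position was better than that of Foxp1 promoter 3 in every library. Foxp1 +31.0 kb and Foxp1 +35.2 kb were also in all 10 libraries, and each lay beyond the middle of the list in LT-HSC replicate 1 alone. At Foxo1, the constant region beside the promoter was Foxo1 +75.2 kb, near the 3′ end of the gene, at 17.3% to 50.4%. At Foxo3 it was Foxo3 +6.3 kb, at 7.64% to 47.1%.

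The number of open regions was lowest in LT-HSC and highest in CDP at all 3 genes. At Foxp1, 15 and 33 of 92 regions were detected in LT-HSC, 43 and 39 in LMPP, 48 and 51 in WT MDP, and 66 and 56 in CDP. The group means were 24 ± 12.7, 41 ± 2.83, 49.5 ± 2.12 and 61 ± 7.07 regions (SD, n = 2 each). The LT-HSC replicates lay further apart than the means of LMPP and WT MDP did, and no 2 stages overlapped. Over all merged regions, 26.4% and 44.3% were detected in LT-HSC, 53.8% and 54.6% in LMPP, 52.4% and 54.2% in WT MDP, and 59.7% and 55.9% in CDP. There too LT-HSC lay below and CDP above the other stages, but LMPP and WT MDP overlapped.

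At Foxo1, 2 and 4 of 23 regions were detected in LT-HSC, 8 and 8 in LMPP, 9 and 7 in WT MDP, and 15 and 12 in CDP. LMPP and WT MDP did not differ beyond their spread here, and CDP stood above both. At Foxo3, 4 and 5 of 24 regions were detected in LT-HSC, 10 and 11 in LMPP, 11 and 11 in WT MDP, and 15 and 16 in CDP. LMPP and WT MDP were again next to each other, with LT-HSC below and CDP above, the same order as over all merged regions.

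In IRF8KO MDP, 37 and 42 Foxp1 regions were detected, against 48 and 51 in WT MDP. Foxo1 had 4 and 5 in IRF8KO MDP, against 9 and 7 in WT MDP. At both genes the IRF8KO and WT libraries did not overlap, but nor did they over all merged regions. There 42.5% and 45.8% were detected in IRF8KO MDP, against 52.4% and 54.2% in WT MDP. The Foxp1 shares were close to these, at 40.2% and 45.7% against 52.2% and 55.4%. Those of Foxo1 were lower in both groups, at 17.4% and 21.7% against 39.1% and 30.4%. Foxo3 had 9 and 14 in IRF8KO MDP, against 11 and 11 in WT MDP, so these overlapped.

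These counts follow list length in part. Over all merged regions, the same means were 35.4% in LT-HSC, 54.2% in LMPP, 44.2% in IRF8KO MDP, 53.3% in WT MDP and 57.8% in CDP. Relative to that, the 3 loci stood low in the early stages and high in CDP. At Foxo1, 13.0% ± 6.15 of regions were open in LT-HSC, 34.8% ± 0 in LMPP, 34.8% ± 6.15 in WT MDP and 58.7% ± 9.22 in CDP (SD, n = 2 each). How much of this comes from the numbers of peaks and tags was not tested beyond the equal list lengths given with each comparison.

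**Figure D2:**
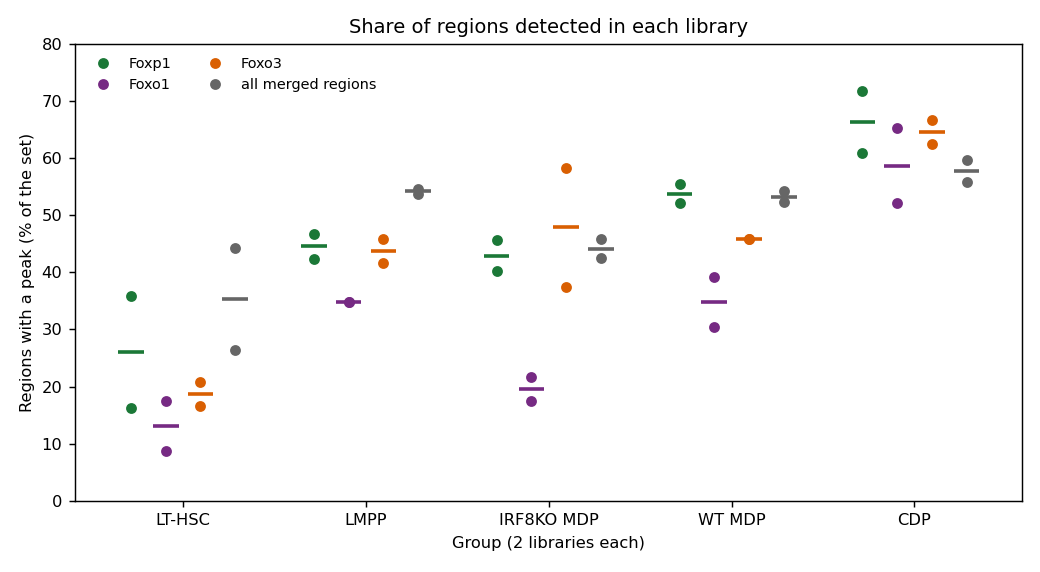
Share of regions with a peak in each library. The y axis is the percent of the set's regions that a library detected, points are the 2 libraries of a group, bars are their means, and grey gives all merged regions. The mean of each forkhead gene lay below the grey mean in LT-HSC and LMPP, and above it in CDP. Foxo1 lay below the grey points in IRF8KO MDP as well, at 17.4% and 21.7%, and in WT MDP, at 39.1% and 30.4%. Foxo3 also lay below them in WT MDP, at 45.8% in each library.

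In the comparisons, gained regions are those with a peak in both libraries of the first-named group and in neither of the second, and lost regions are the opposite. Counts are out of the regions detected in at least 1 of the 4 libraries, and the same share over all merged regions is given as the background. CDP and WT MDP enter several comparisons, so the comparisons are not independent of each other.

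Between LMPP and LT-HSC, open chromatin was mostly gained. At Foxp1 13 regions were gained and 3 lost of 54 detected, at Foxo1 3 and 0 of 11, and at Foxo3 5 and 1 of 15. Together that was 21 gained of 80 (26.3%) and 4 lost (5%), where 18.5% of all regions were gained and 2.37% lost. Within Foxp1, 10 of its 13 gains lay in the 254.5 kb between the first and second start, which hold 45 of the 92 Foxp1 regions.

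Among the gained regions, Foxo3 -17.6 kb (chr10:42293295-42295267) was detected by no LT-HSC library and stood at 55.1% and 54.98% in LMPP. Foxp1 +136.2 kb (chr6:99383747-99385928) stood at 65.3% and 76.6% in LMPP and was in no LT-HSC library. At Foxo1, Foxo1 +31.9 kb (chr3:52299273-52301212) stood at 39.8% and 33.1% in LMPP. All 3 also had a peak in each WT MDP and CDP library.

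Some gains did not last beyond LMPP. Detected in both LMPP libraries and in no other were Foxp1 +152.8, +183.6, +494.7 and +527.6 kb, Foxo1 +40.7 kb and Foxo3 +102.6 kb. That is 6 members (4.32%, against 3.78% of all merged regions). Foxp1 +183.6 kb stood at 38.0% and 69.4% in the LMPP libraries. Its neighbour Foxp1 +185.5 kb, 677 bp away, was in no LT-HSC or LMPP library and in all 6 of the others.

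The lost regions were Foxp1 +82.7, +321.6 and +544.9 kb and Foxo3 +31.7 kb. Foxp1 +544.9 kb (chr6:98975848-98976393) was the only member seen in both LT-HSC libraries and nowhere else, at 96.1% and 50.7%. Foxo3 +31.7 kb stood at 77.0% and 30.1% in LT-HSC and also had a peak in 1 CDP and 1 IRF8KO MDP library.

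The short LT-HSC list bears on this comparison. With LT-HSC replicate 1 left out, 21 regions were gained and 11 lost, at backgrounds of 19.1% and 9.92%. With replicate 2 left out, which leaves the shortest list alone, 34 were gained and 4 lost. Leaving out a library relaxes the rule, so counts over all regions can also only rise or stay equal. The 34 therefore do not show a larger excess over the background. With all lists trimmed to 31314 peaks, the length of the shortest, 4 of 34 regions were gained (11.8%, background 11.3%) and 3 lost (8.82%, background 9.12%). The excess over the background was thus not seen at equal list lengths. Trimming drops the lower part of the longer lists, where most of the 21 gained regions stood in LMPP, so it does not test the excess among those regions. Trimmed counts below are likewise of partly different regions.

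Between WT MDP and LMPP, the balance was even over the genome and tilted towards gains at Foxp1. There 15 regions were gained and 8 lost of 68 detected. Foxo1 had 3 gained and 1 lost of 14, and Foxo3 had 1 gained and 1 lost of 15. Over the 3 genes 19 of 97 regions (19.6%) were gained and 10 (10.3%) lost, where 12.9% of all regions were gained and 13.4% lost. No other of the 21627 gene windows had as many as 15 gained regions, but the Foxp1 window is among the fullest, with only 1 other window holding as many regions. At equal list lengths 11 of 42 regions were gained (26.2%, background 14.9%) and 7 lost (16.7%, background 15.6%). The gains were then 9 of 31 at Foxp1, 0 of 3 at Foxo1 and 2 of 8 at Foxo3.

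Foxp1 +513.2 kb (chr6:99007248-99008409), a gained region downstream of the third start, stood at 45.8% and 35.8% in WT MDP and was in no LMPP library. Foxp1 +18.5 kb (chr6:99501816-99503190) stood at 64.1% and 53.4% in WT MDP. Foxp1 +329.4 kb stood at 43.3% and 34.1% in WT MDP, and at 30.4% and 25.3% in IRF8KO MDP, and was in no other library. At Foxo1 the gains were Foxo1 -32.3, -10.2 and +63.7 kb, and at Foxo3 the gain was Foxo3 +51.3 kb, at 48.8% and 55.5% in WT MDP.

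Many regions stayed open in both stages but changed places in the lists. Of 35 members in all 4 libraries, 5 stood nearer the top in WT MDP by at least 20 points in every pairing of libraries and 6 stood further from it, where 8.51% and 9.29% of all such regions did so. The threshold of 20 points was chosen with the data in view.

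The widest move was that of Foxp1 +145.6 kb (chr6:99374330-99376468). It stood at 92.1% and 81.9% in WT MDP, against 10.4% and 10.7% in LMPP. In LT-HSC it was in replicate 2 alone, at 34.7%, and in CDP it stood at 77.0% and 59.6%. In the other direction, Foxp1 +85.0 kb (chr6:99434877-99437155) stood at 9.02% and 20.1% in WT MDP, against 65.3% and 58.7% in LMPP, and at 10.4% and 5.70% in CDP. These 2 regions of the same gene thus moved in opposite directions at the same step.

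At Foxo3, Foxo3 -17.6 kb stood at 14.7% and 11.3% in WT MDP, against 55.1% and 54.98% in LMPP, and at 7.34% and 9.88% in CDP. Foxo3 +123.8 kb (chr10:42152296-42153402), beyond the 3′ end of the gene, stood at 31.4% and 27.9% in WT MDP, against 75.0% and 73.6% in LMPP. Foxo3 +56.0 kb went the other way, at 70.4% and 87.9% in WT MDP and 36.4% and 33.4% in LMPP.

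Between CDP and WT MDP, all 3 genes gained more than they lost. Foxp1 had 11 gained and 3 lost of 74, Foxo1 4 and 1 of 17, and Foxo3 4 and 0 of 17. Together 19 of 108 regions (17.6%) were gained and 4 (3.70%) lost, where 8.8% of all regions were gained and 4.94% lost. Unlike in the first comparison, the share gained was above the background at equal list lengths too, with 13 of 48 regions (27.1%, background 8.25%). The gains were then 4 of 6 regions at Foxo1, 7 of 33 at Foxp1 and 2 of 9 at Foxo3. Most of these 13 were not among the 19, since trimming also drops peaks low in the WT MDP lists. Foxo1 -10.2 kb, for example, counts as gained after trimming although it had WT MDP peaks, at 58.8% and 69.5%. CDP libraries were also the deepest, and without CDP replicate 2, which leaves the deeper replicate alone, 29 regions were gained. That setting relaxes the rule, so the count over all regions can also only rise or stay equal.

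Of the 19 gained regions, 14 were in no library but those of CDP (73.7%, against 71.3% of all regions gained at this step). At Foxo1 they were Foxo1 -34.6, -24.5, +72.4 and +92.8 kb, and Foxo1 -34.6 kb (chr3:52233433-52234079) stood best, at 41.6% and 45.8%. At Foxo3 they were Foxo3 -4.2, +14.6 and +58.5 kb, with Foxo3 +14.6 kb (chr10:42261828-42262461) at 45.6% and 46.2%. At Foxp1 they were Foxp1 +117.9, +242.5, +248.7, +295.6, +520.6, +569.0 and +587.6 kb. These are low to middle standings, and none of the gained members reached the upper 40% of a CDP list.

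The 103 kb downstream of the third Foxp1 start held 17 regions and 5 of the 11 gains. In a stretch of 10.9 kb there, 5 neighbouring regions had 5 different patterns over the groups, as did 83 of the 127 runs of 5 neighbours at the 3 genes. Foxp1 +513.2 kb was in WT MDP and CDP, Foxp1 +517.2 kb in LMPP and CDP, Foxp1 +519.1 kb in IRF8KO MDP and WT MDP, Foxp1 +520.6 kb in CDP alone, and Foxp1 +523.0 kb in all 10 libraries.

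Of 50 members in all 4 libraries, 11 (22%) stood nearer the top in CDP by at least 20 points and 1 stood further from it, where 5.18% and 3.11% of all such regions did so. Foxp1 had 7 of the 11, and Foxo1 and Foxo3 had 2 each.

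Foxo1 -10.2 kb (chr3:52257743-52258547), upstream of the promoter, stood at 23.4% and 24.6% in CDP, against 58.8% and 69.5% in WT MDP, and was in no other library. Foxo1 +122.7 kb stood at 34.9% and 38.3% in CDP, against 85.1% and 72.9% in WT MDP. Foxp1 +18.5 kb stood at 18.8% and 16.3% in CDP, against 64.1% and 53.4% in WT MDP. Foxo3 +66.2 kb (chr10:42209775-42211224) stood at 26.3% and 30.6% in CDP, against 77.8% and 70.8% in WT MDP.

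The exception was Foxp1 +308.8 kb (chr6:99211352-99213011), which stood at 72.5% and 85.4% in CDP, against 34.3% and 32.5% in WT MDP. It stood nearer the top still in IRF8KO MDP, at 18.5% and 15.4%. The 4 regions lost between the stages were Foxp1 +201.3, +329.4 and +519.1 kb and Foxo1 +63.7 kb, and both IRF8KO MDP libraries detected each of them except Foxp1 +201.3 kb, which replicate 1 detected.

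**Figure D3:**
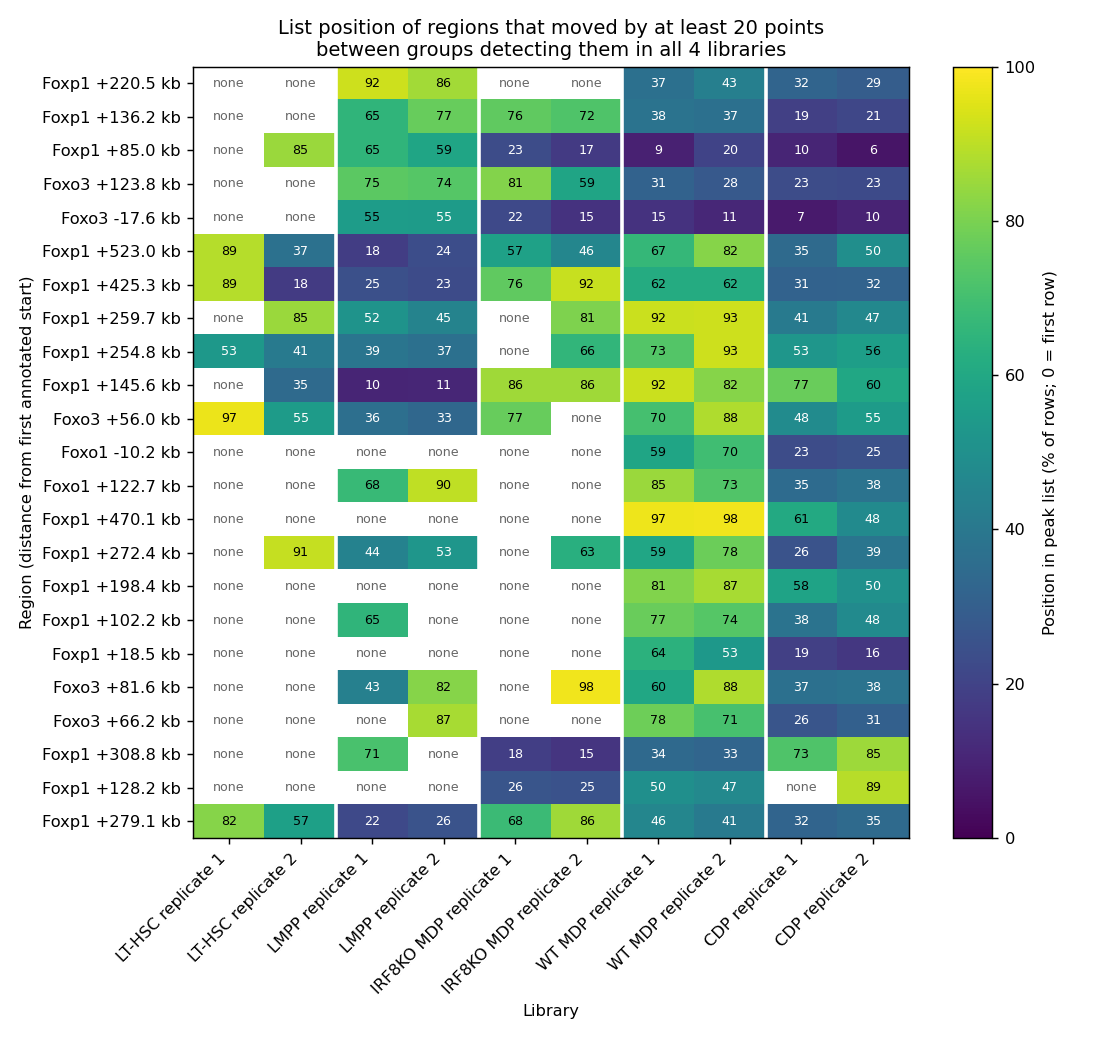
Positions of the 23 regions that moved by at least 20 points in a comparison. Rows are regions, columns are libraries, and numbers and colour give the position in the library's peak list in percent of rows, with none where no peak was called. Foxp1 +145.6 kb was near the top only in LMPP, at 10.4% and 10.7%, and Foxo1 -10.2 kb was open in WT MDP and CDP alone.

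Over the whole path, CDP against LT-HSC, 31 of 75 Foxp1 regions were gained and 3 lost, 9 of 17 Foxo1 regions were gained and 0 lost, and 12 of 17 Foxo3 regions were gained and 0 lost. Together 52 of 109 (47.7%) were gained and 3 (2.75%) lost, where 30.5% of all regions were gained and 6.85% lost. With LT-HSC replicate 1 left out 52 were gained and 9 lost, by a relaxed rule under which counts over all regions can also only rise or stay equal. At equal list lengths 23 of 52 were gained (44.2%, background 21.3%) and 5 lost (9.62%, background 18.0%).

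**Figure D4:**
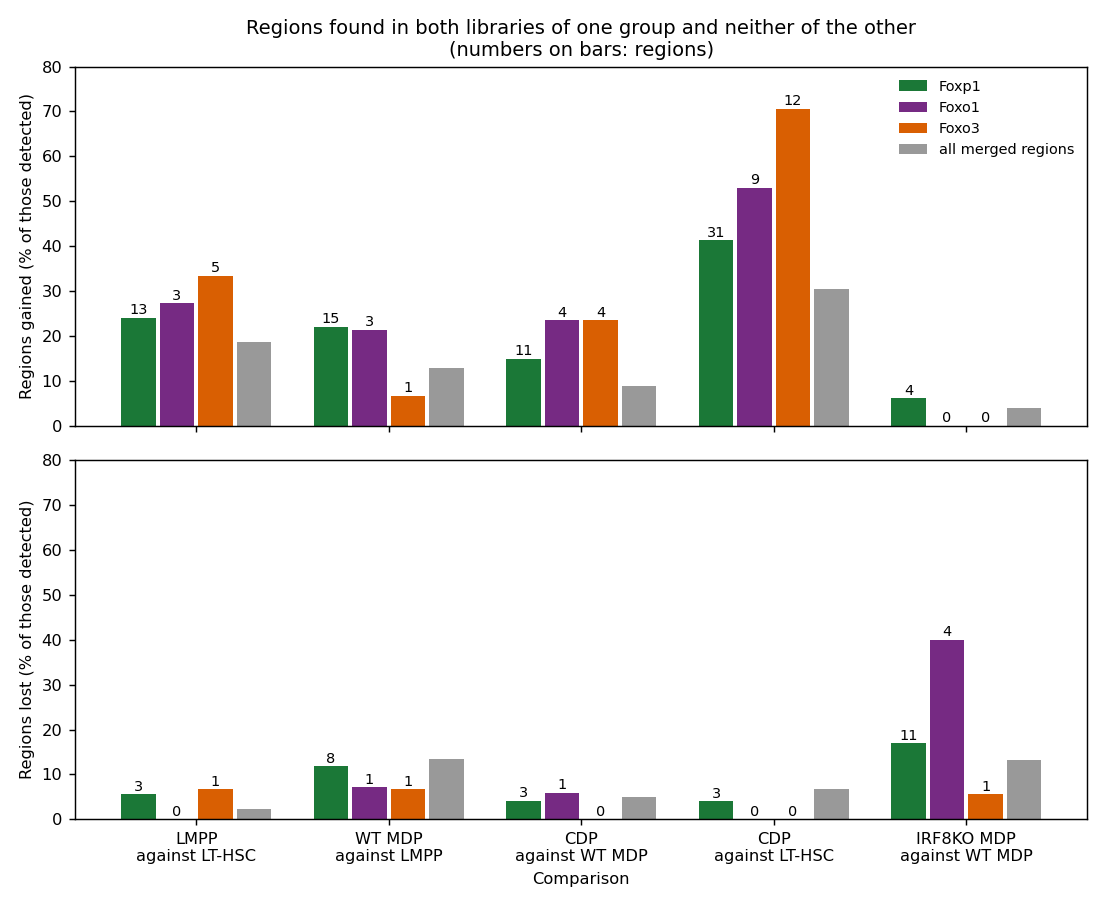
Regions gained (upper panel) and lost (lower panel) in the 5 comparisons. Bars give the percent of the regions detected in at least 1 of the 4 libraries, numbers on the bars count regions, and grey gives all merged regions. In CDP against WT MDP the gained share of each gene lay above the grey bar of 8.8%, and in IRF8KO MDP against WT MDP the lost share was highest at Foxo1, with 4 of 10 regions.

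The last comparison asked which regions of these loci differ in progenitors of the same gate when IRF8, a factor needed for monocyte and dendritic cell development, is absent. Foxp1 had 4 regions gained and 11 lost in IRF8KO MDP of 65 detected, Foxo1 had 0 gained and 4 lost of 10, and Foxo3 had 0 gained and 1 lost of 18. Over the 3 genes 16 of 93 regions (17.2%) were lost and 4 (4.30%) gained, where 13.3% of all regions were lost and 3.96% gained. The joint share was therefore close to the background, and the loss at Foxo1 (40%) stood above it on few regions.

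At Foxo1 the lost regions were Foxo1 -32.3, -10.2, +31.9 and +122.7 kb. None had a peak in IRF8KO MDP, and in WT MDP their positions were between 58.8% and 90.8%, in the lower part of the lists. The Foxo1 promoter stood at 9.59% and 8.59% in IRF8KO MDP, against 9.32% and 6.53% in WT MDP. Foxo1 +75.2 kb stood at 17.3% and 20.6% in IRF8KO MDP, against 39.8% and 34.8% in WT MDP. Both were chosen as regions found in all 10 libraries, so their presence in both genotypes follows from that choice.

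At Foxp1, 8 of the 11 lost regions lay between the first and second start, where 45 of its 92 regions are. Foxp1 +220.5 kb (chr6:99300021-99300988) was in neither IRF8KO MDP library and stood at 36.9% and 43.1% in WT MDP. Foxp1 +513.2 kb was in neither IRF8KO MDP library and stood at 45.8% and 35.8% in WT MDP. The other 9 were Foxp1 +18.5, +80.7, +82.7, +102.2, +198.4, +217.7, +225.2, +456.6 and +470.1 kb. At Foxo3 the lost region was Foxo3 +66.2 kb.

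All 16 lost regions were found in both CDP libraries, whereas of all regions lost in IRF8KO MDP 81.6% were. In 10 of the 16, WT MDP was the first WT stage at which both libraries had a peak, in 5 it was LMPP and in 1, Foxp1 +82.7 kb, it was LT-HSC. These shares of 62.5%, 31.3% and 6.25% were near those of all lost regions, which were 64.3%, 26.8% and 8.92%. Each group's own values stand above, and the comparisons share the WT MDP libraries.

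The 4 gained regions all lay at Foxp1. Foxp1 -17.7, +77.3 and +107.7 kb were in no WT library, and Foxp1 +107.7 kb (chr6:99412508-99413991) stood at 57.2% and 38.6% in IRF8KO MDP. Foxp1 +321.6 kb (chr6:99199110-99199760) stood at 42.1% and 55.9% in IRF8KO MDP, and the only WT libraries with a peak there were those of LT-HSC, at 88.9% and 71.3%. Over the genome, 15 regions had this combination of both LT-HSC and both IRF8KO MDP libraries alone.

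Of 34 members in all 4 MDP libraries, 3 stood further from the top in IRF8KO MDP by at least 20 points and 1 stood nearer, where 6.17% and 2.36% of all such regions did so. Foxp1 +136.2 kb stood at 75.6% and 72.4% in IRF8KO MDP, against 37.9% and 36.8% in WT MDP. Foxo3 +123.8 kb stood at 81.5% and 58.6% in IRF8KO MDP, against 31.4% and 27.9% in WT MDP. At both, the IRF8KO MDP values overlapped those of LMPP, which were 65.3% and 76.6% at the first and 75.0% and 73.6% at the second. The other, Foxp1 +279.1 kb, stood at 68.0% and 85.6% in IRF8KO MDP, against 45.8% and 40.8% in WT MDP, and stood nearer the top than either in LMPP, at 22.2% and 25.7%. Foxp1 +128.2 kb stood nearer the top, at 26.3% and 25.3% in IRF8KO MDP, against 49.99% and 47.0% in WT MDP.

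IRF8KO MDP lists were shorter than WT MDP lists, and their part in the losses was not tested beyond trimming. At equal list lengths 7 of 40 regions were lost (17.5%, background 9.97%), 6 at Foxp1, 1 at Foxo3 and 0 at Foxo1, where only 3 regions were left. The WT MDP peaks of the 4 lost Foxo1 regions stood at 58.8% to 90.8% of lists of 62130 and 64515 peaks. Trimming to 31314 peaks removed all of them, so it does not test the losses at Foxo1.

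The genes whose windows were most like those of the 3 members were found by the mean absolute difference, over the 10 libraries, in the share of regions detected, among 11301 protein-coding genes with at least 10 regions. For Foxp1 they were Rreb1 at 2.65 points, Spata13 at 2.84 and Wasf2 at 2.84, where the median gene was at 13.7. For Foxo1 they were Pdgfra at 4.35, Atl2 at 4.53 and Asic2 at 5.22, with a median of 23.8. For Foxo3 they were Gnaq at 3.98, Abtb2 at 4.08 and Ubash3a at 4.17, with a median of 15.8. Among the members, Foxp1 and Foxo3 differed by 7.03 points, Foxo1 and Foxo3 by 12.5, and Foxp1 and Foxo1 by 14.6.

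Of the 41 other forkhead genes, 14 had more regions gained than lost in CDP against WT MDP (34.1%, against 33.2% of all genes) and 5 more lost than gained. In IRF8KO MDP against WT MDP 4 had a net gain and 16 a net loss (39.0%, against 40.5%). Foxn3, a forkhead repressor, had the largest summed net gain of the list, with 5 regions gained and 2 lost in CDP against WT MDP and 7 gained and 4 lost in IRF8KO MDP against WT MDP. Foxk1, another forkhead repressor, had 18 and 21 regions detected in IRF8KO MDP, against 14 and 17 in WT MDP. Foxj1, a regulator of motile cilia genes, had 2 gained and 0 lost in CDP against WT MDP, and Foxp4, a relative of Foxp1, had 1 and 1. The median net change was 0 in both comparisons, as over all genes. At equal list lengths 9 had a net gain and 5 a net loss in IRF8KO MDP against WT MDP (22.0% and 12.2%, against 16.7% and 17.8% of all genes). Net losses thus did not outnumber net gains there, as they did with full lists.

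Of 33 genes upstream of FOXO, in PI3K-AKT signalling and among other regulators of FOXO proteins (kinases, binding proteins, ubiquitin and acetylation enzymes, nuclear export), 19 had a net gain in CDP against WT MDP (57.6%, against 33.2% of all genes) and 6 a net loss. In IRF8KO MDP against WT MDP 5 had a net gain and 18 a net loss (54.5%, against 40.5%). The median net change was 1 and -1 region in these comparisons, where that of all genes was 0. In WT MDP against LMPP 19 had a net gain and 8 a net loss (57.6% and 24.2%, against 37.9% and 24.1% of all genes). There Pik3r5, a regulatory subunit of the PI3K that G proteins activate, had 6 regions gained and 1 lost, and Sgk3, an AKT-related kinase, had 3 and 0. Mdm2, a ubiquitin ligase, had 4 and 0, and Pik3r1, a regulatory subunit of PI3K, had 4 and 2. All of them had 1 gained and 0 lost in CDP against WT MDP. In IRF8KO MDP against WT MDP Pik3r5 had 1 gained and 3 lost, Sgk3 0 and 3, Mdm2 1 and 1, and Pik3r1 1 and 2. With lists of equal length 9 of the 33 had a net gain and 5 a net loss in CDP against WT MDP (27.3% and 15.2%, against 17.7% and 14.6% of all genes), and 9 had a net gain and 9 a net loss in IRF8KO MDP against WT MDP (27.3% each, against 16.7% and 17.8%).

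Of 41 known FOXO target genes, 30 had a net gain and 0 a net loss in LMPP against LT-HSC (73.2% gained, against 48.4% of all genes). In IRF8KO MDP against WT MDP 5 had a net gain and 23 a net loss (56.1%, against 40.5%). The median net change was 1 and -1 region, where that of all genes was 0. In WT MDP against LMPP 19 had a net gain and 14 a net loss (46.3% and 34.1%, against 37.9% and 24.1% of all genes). In CDP against WT MDP 19 and 9 did (46.3% and 22.0%, against 33.2% and 14.3%). At equal list lengths 14 and 15 did in WT MDP against LMPP (34.1% and 36.6%, against 28.7% and 20.4%). In CDP against WT MDP 9 and 6 then did (22.0% and 14.6%, against 17.7% and 14.6%). Ccr7, a chemokine receptor, had 0 regions gained and 4 lost in IRF8KO MDP against WT MDP. Il7r, the IL-7 receptor, had 0 and 3, and S1pr1, a receptor for lymphocyte exit from tissues, had 1 and 3. With all lists at the same length, 16 had a net gain and 5 a net loss in LMPP against LT-HSC (39.0% and 12.2%, against 17.8% and 21.8% of all genes). In IRF8KO MDP against WT MDP 12 then had a net gain and 13 a net loss (29.3% and 31.7%, against 16.7% and 17.8%). Net gains and net losses were thus nearly equal in number, and both shares stood above those of all genes.

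Of 19 partners and known targets of FOXP1, a list that shares 5 genes with the last (26.3% of its own members and 12.2% of the FOXO targets, Il7r among them), 15 had a net gain in LMPP against LT-HSC (78.9%, against 48.4%), and 2 had a net gain and 11 a net loss in IRF8KO MDP against WT MDP (57.9% lost, against 40.5%). The median net change was 2 and -1 region, where that of all genes was 0. Itgam, which encodes the integrin CD11b, had 0 and 2 of 23 regions detected in LT-HSC, 13 and 10 in LMPP, 15 and 20 in WT MDP and 18 and 18 in CDP. Ccr2, the chemokine receptor of monocytes, had 12 and 13 of 22 regions in WT MDP, against 8 and 6 in LMPP, but of the whole list 5 had a net gain and 8 a net loss in that comparison (42.1% lost, against 24.1% of all genes). Gatad2a, a subunit of the NuRD repressor complex, had 3 gained and 0 lost in CDP against WT MDP. Of the whole list, 7 had a net gain there (36.8%, against 33.2% of all genes) and 0 a net loss (against 14.3%). In lists of equal length 7 had a net gain and 4 a net loss in LMPP against LT-HSC (36.8% and 21.1%, against 17.8% and 21.8%). In IRF8KO MDP against WT MDP 6 then had a net gain and 3 a net loss (31.6% and 15.8%, against 16.7% and 17.8%), the other way from the full lists. Windows with more regions have more chances of a net change, and the lists were not matched to all genes in this respect.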

How the data were processed

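Peak lists of 10 ATAC-seq libraries were used, 2 per group, grouped by sample title. The tools were Bowtie 1.1.2 and HOMER 4.9, and the build was mm10, per the submitters' processing notes. Peaks were called by HOMER for 1 library at a time without a control, per the file headers (size 500, minimum distance 1000, false discovery rate 0.001, 4-fold over the local region, at most 1 tag per bp). The deposited score column is 1 in every row and carries no strength. Other deposited values used were peak coordinates. No counts per peak were used here, so detection and row position were compared and no count model was fitted. No source used here states whether reads were shifted for the transposase offset. A minimal tag number of 10 to 13 per peak was set by the headers' thresholds, so deeper libraries can show weaker regions.

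Peaks on chromosomes 1 to 19 and X were merged at 1 bp overlap (Python 3.11.15, pandas 2.3.3, numpy 2.4.6, figures with matplotlib 3.10.9). The scripts were tested on simulated peaks. Replicates shared at most 100 peaks with identical coordinates, so none was a copy. Members, gene lists and thresholds were chosen with earlier results of these data known. Regions were named if they overlapped a gene end, were gained or lost (the first 3 per gene, direction and comparison by mean position), lay in 1 group alone or had the 3 best mean positions of a gene, and regions named beyond this, such as those that changed position, were chosen after their values were seen. From each gene list the 4 members with the largest summed net gain were named, except 1 gene that is not reported here. Alternatives were a 50% cover of the region, equal list lengths, windows of 0 and 20 kb, merging across 200 bp, leaving out each library and, added after seeing the data, other settings for list position. All members of the gene lists had an entry in the RefSeq table (GRCm38.p6), and all 3 genes had promoters in the sequence table.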

Additional observations from a re-analysis of the deposited data

How the results depend on the processing

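No paired analysis was possible because the results are counts of detected regions and come from no test. At equal list lengths (31314 peaks), regions gained at the 3 genes numbered 4 in LMPP against LT-HSC (21 with full lists), 11 in WT MDP against LMPP (19) and 23 in CDP against LT-HSC (52), regions lost numbered 5 in CDP against LT-HSC (3) and 7 in IRF8KO MDP against WT MDP (16), and the mean detected per library was 19 at Foxp1 (43), 3.1 at Foxo1 (7.4) and 5 at Foxo3 (10.6). Within the gene spans alone the means were 3.9 at Foxo1 and 6.5 at Foxo3, by construction, since fewer regions were counted. Counts of gained and lost regions can only rise or stay equal when a library is left out, at these genes and over all regions. Leaving out 1 library, which relaxes the rule for that group, gave 21 to 34 gained and 4 to 11 lost in LMPP against LT-HSC, 21 to 24 and 12 to 15 in WT MDP against LMPP, 21 to 29 and 5 to 8 in CDP against WT MDP, 52 to 64 and 3 to 9 in CDP against LT-HSC, and 6 to 12 and 19 to 23 in IRF8KO MDP against WT MDP. The extremes were 11 and 9 lost without LT-HSC replicate 1, 34 gained without LT-HSC replicate 2, 29 gained in CDP against WT MDP without CDP replicate 2 and 8 lost without CDP replicate 1, 7 lost there and 7 gained in IRF8KO MDP without WT MDP replicate 2, and 12 and 8 gained in IRF8KO MDP without IRF8KO MDP replicates 1 and 2. For list positions, midpoints of the blocks in genome order gave the same counts at 20 points in all 3 comparisons, and a threshold of 10 points gave 7 and 10 members nearer and further in WT MDP against LMPP, 20 and 1 in CDP against WT MDP and 5 and 6 in IRF8KO MDP against WT MDP. Without CDP replicate 2 or WT MDP replicate 1, 19 and 17 members were nearer in CDP against WT MDP. The share of tags within peaks and the depth limit what a missing peak says: a region without a peak may still be open below the threshold.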
